A study of Mus musculus with 82 samples.

Results

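The genes described here are 8 imprinted or imprint-associated genes of mouse chromosome 6: Peg10, Sgce, Ppp1r9a, Asb4, Mest, Copg2, Nap1l5 and Herc3. They lie in 3 separate domains and were found by symbol among 21523 protein-coding genes. They were chosen by symbol with the peaks of this series already known, and peaks near imprinted genes, Peg10 and Sgce included, had been seen before the choice. Their peaks are therefore given as a description, without a test. The study profiled mouse embryonic stem cells of a hybrid 129-C57BL/6 background in 2i medium with LIF, and it asked how Adnp and HP1 proteins are placed on chromatin. The HP1γ list holds 2047 peaks that lack the Adnp motif. The series text links it to 3 ChIP libraries from Adnp KO cells and 3 from wild-type cells, all with Cbx3 FlagAvi, a biotin-taggable HP1γ. The Adnp list holds 15026 peaks and is tied to 3 ChIP libraries from Adnp FlagAvi cells that are otherwise wild type. None of these cells was treated, and the tagged proteins were pulled down on streptavidin beads.

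An imprinted gene is expressed mainly from the copy inherited from 1 parent. At many such genes a CpG-rich promoter carries DNA methylation set down in the egg or sperm and kept afterwards on that parental copy. On the methylated copy, KRAB zinc finger proteins such as Zfp57 bind and bring Trim28, the H3K9 methyltransferase Setdb1 and HP1 proteins. HP1γ, encoded by Cbx3, is a chromodomain protein that binds methylated H3K9. Adnp is a zinc finger and homeodomain protein that forms the ChAHP complex with Chd4 and HP1 proteins. In mouse, the promoters of Peg10 with Sgce, of Mest and of Nap1l5 are methylated on the maternal copy and these genes are expressed from the paternal copy. Ppp1r9a, Asb4 and Copg2 are known as maternally expressed in some tissues, and Herc3 contains Nap1l5 within its span.

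Each peak list is pooled over its replicates, so no value below has an error between replicates, and the read depth behind a peak is unknown. The lists do not separate the parental copies. HP1γ peaks carry names of the Adnp KO cells, and the genotype in which any one of them was seen cannot be told. All positions are on GRCm38 (mm10) and count from 1. The targeted gene and the stem cell markers could not be checked, because RNA values were not analysed here.

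The promoters under HP1γ peaks are shown because both peaks cover a gene start, and those of Mest's upstream start and of Copg2 because no HP1γ peak lay on them. Each line gives the 250 bases before a gene start from RefSeq (GRCm38.p6), 5′ to 3′ on the strand of the gene. Capitals mark TGCCGC, the core hexamer of the Zfp57 motif, or its reverse complement GCGGCA. The stretches are chr6:30737800-30738049 (plus strand) for Mest, chr6:58907127-58907376 (minus strand) for Nap1l5, chr6:30733256-30733505 (plus strand) for the upstream start of Mest and chr6:30896795-30897044 (minus strand) for Copg2.
Mest: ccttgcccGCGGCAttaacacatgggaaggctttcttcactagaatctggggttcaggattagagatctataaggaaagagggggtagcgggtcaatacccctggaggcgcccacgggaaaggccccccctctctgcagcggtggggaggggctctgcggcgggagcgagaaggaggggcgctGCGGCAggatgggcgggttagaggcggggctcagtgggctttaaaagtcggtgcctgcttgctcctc
Nap1l5: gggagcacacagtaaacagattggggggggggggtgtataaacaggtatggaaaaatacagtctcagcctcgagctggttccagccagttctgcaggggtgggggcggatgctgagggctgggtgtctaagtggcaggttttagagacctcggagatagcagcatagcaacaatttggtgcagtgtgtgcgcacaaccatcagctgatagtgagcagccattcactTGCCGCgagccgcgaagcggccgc
Mest upstream start: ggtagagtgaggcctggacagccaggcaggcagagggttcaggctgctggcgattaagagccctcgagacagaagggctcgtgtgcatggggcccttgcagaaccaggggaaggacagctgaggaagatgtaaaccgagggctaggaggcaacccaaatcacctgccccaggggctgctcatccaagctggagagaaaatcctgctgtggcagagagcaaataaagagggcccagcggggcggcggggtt
Copg2: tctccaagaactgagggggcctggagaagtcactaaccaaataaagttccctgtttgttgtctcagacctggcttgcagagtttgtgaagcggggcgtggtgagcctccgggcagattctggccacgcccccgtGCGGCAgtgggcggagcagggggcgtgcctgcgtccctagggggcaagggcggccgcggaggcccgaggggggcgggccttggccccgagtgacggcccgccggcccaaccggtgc

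Mest had the widest HP1γ peak of the 8 genes. Mest, also called Peg1, encodes a protein of the alpha/beta hydrolase fold and is a classical paternally expressed gene (RefSeq gene 17294, 30733506 to 30748466). Its peak spanned 30736887 to 30738906 and was 2020 bp wide. It reached from 1163 bp before the start at 30738050 to 856 bp after it, so the whole Mest stretch printed above lay within it. The upstream Mest start at 30733506 lay 3.38 kb from the peak. The precursor of miR-335, which lies inside Mest, was 2.39 kb from it. The peak ranked 8 among the 2047 HP1γ peaks by width, and 0.391% of the peaks were at least as wide. No Adnp peak lay within 20 kb of Mest, and the nearest was 262 kb away.

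Nap1l5 showed a similar arrangement. Nap1l5, a small paternally expressed retrogene related to nucleosome assembly proteins (gene 58243, 58905233 to 58907126), lies inside Herc3, which encodes a HECT ubiquitin ligase (gene 73998, 58831455 to 58920398). An HP1γ peak of 1076 bp at 58906361 to 58907436 reached from 310 bp before the Nap1l5 start to 765 bp after it. It ranked 37 by width, with 1.81% of the peaks at least as wide. This was also the single peak counted for Herc3. The annotated Herc3 start at 58833700 lay 72.7 kb from it. The nearest Adnp peak was 1740 kb from Nap1l5 and 1730 kb from Herc3.

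Peg10 and Sgce had narrower peaks. Peg10, a retrotransposon-derived gene needed for the placenta (gene 170676, 4747306 to 4760517), and Sgce, the gene of epsilon-sarcoglycan (gene 20392, 4674350 to 4747204), are transcribed away from each other, and their facing ends lay 102 bp apart. HP1γ peaks of 210 bp at 4747568 to 4747777 and of 301 bp at 4747875 to 4748175 lay inside Peg10, starting 262 and 569 bp from that end. Both count for Sgce too, since the nearer one began 364 bp beyond it, and none lay inside Sgce. Of all HP1γ peaks, no fewer than 87.0% were at least as wide as the first and no fewer than 51.2% at least as wide as the second. In each width share given for a single peak, other peaks of the same width were not counted, so the share is a minimum. Sgce held an Adnp peak of 259 bp, 11.5 kb from its lower end, with an authors' score of 6.92, and 98.0% of Adnp peaks scored at least that. Neither Peg10 nor Sgce has an entry in the promoter table used, so their letters are not printed.

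Ppp1r9a differed from these promoters in having its HP1γ peaks far inside the gene and partly on Adnp peaks. It encodes neurabin I, an actin-binding scaffold of neurons, and is the longest of the 8 genes (gene 243725, 4902872 to 5165661). Its widest HP1γ peak, 969 bp at 4923697 to 4924665, began 20.8 kb inside the gene and ranked 65 by width. An Adnp peak of 533 bp at 4923758 to 4924290 lay wholly within it, with a score of 9.45, which 91.8% of Adnp peaks reached. An HP1γ peak of 366 bp lay just before it, at 4923243 to 4923608, without an Adnp peak. The third, 262 bp at 4992408 to 4992669, shared 105 bp with an Adnp peak at 4992565 to 4993221 that scored 21.7. Farther inside, Adnp peaks with scores of 9.93 and 13.8 lay without an HP1γ peak. A further Adnp peak, with a score of 21.8, lay 1171 bp beyond the lower end of Ppp1r9a. No peak of either list touched the promoter windows of its annotated starts, which lay 20.3 and 19.9 kb from the nearest HP1γ peak.

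Asb4 and Copg2 had no peak of either list inside them or within 5 kb. Asb4, which encodes an ankyrin repeat and SOCS box protein (gene 65255, 5383386 to 5433022), had an HP1γ peak of 207 bp at 5439085 to 5439291, 6.06 kb beyond its upper end. Its annotated starts were 55.7 and 48.7 kb from the nearest HP1γ peak. Copg2, the gene of a coatomer subunit (gene 54160, 30747554 to 30896815), overlaps the upper end of Mest by 913 bp. The HP1γ peak nearest to Copg2 was that of Mest, 8.65 kb away, and the Copg2 start was 60.6 kb from any. The nearest Adnp peak was 330 kb from Asb4 and 276 kb from Copg2.

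**Figure D1:**
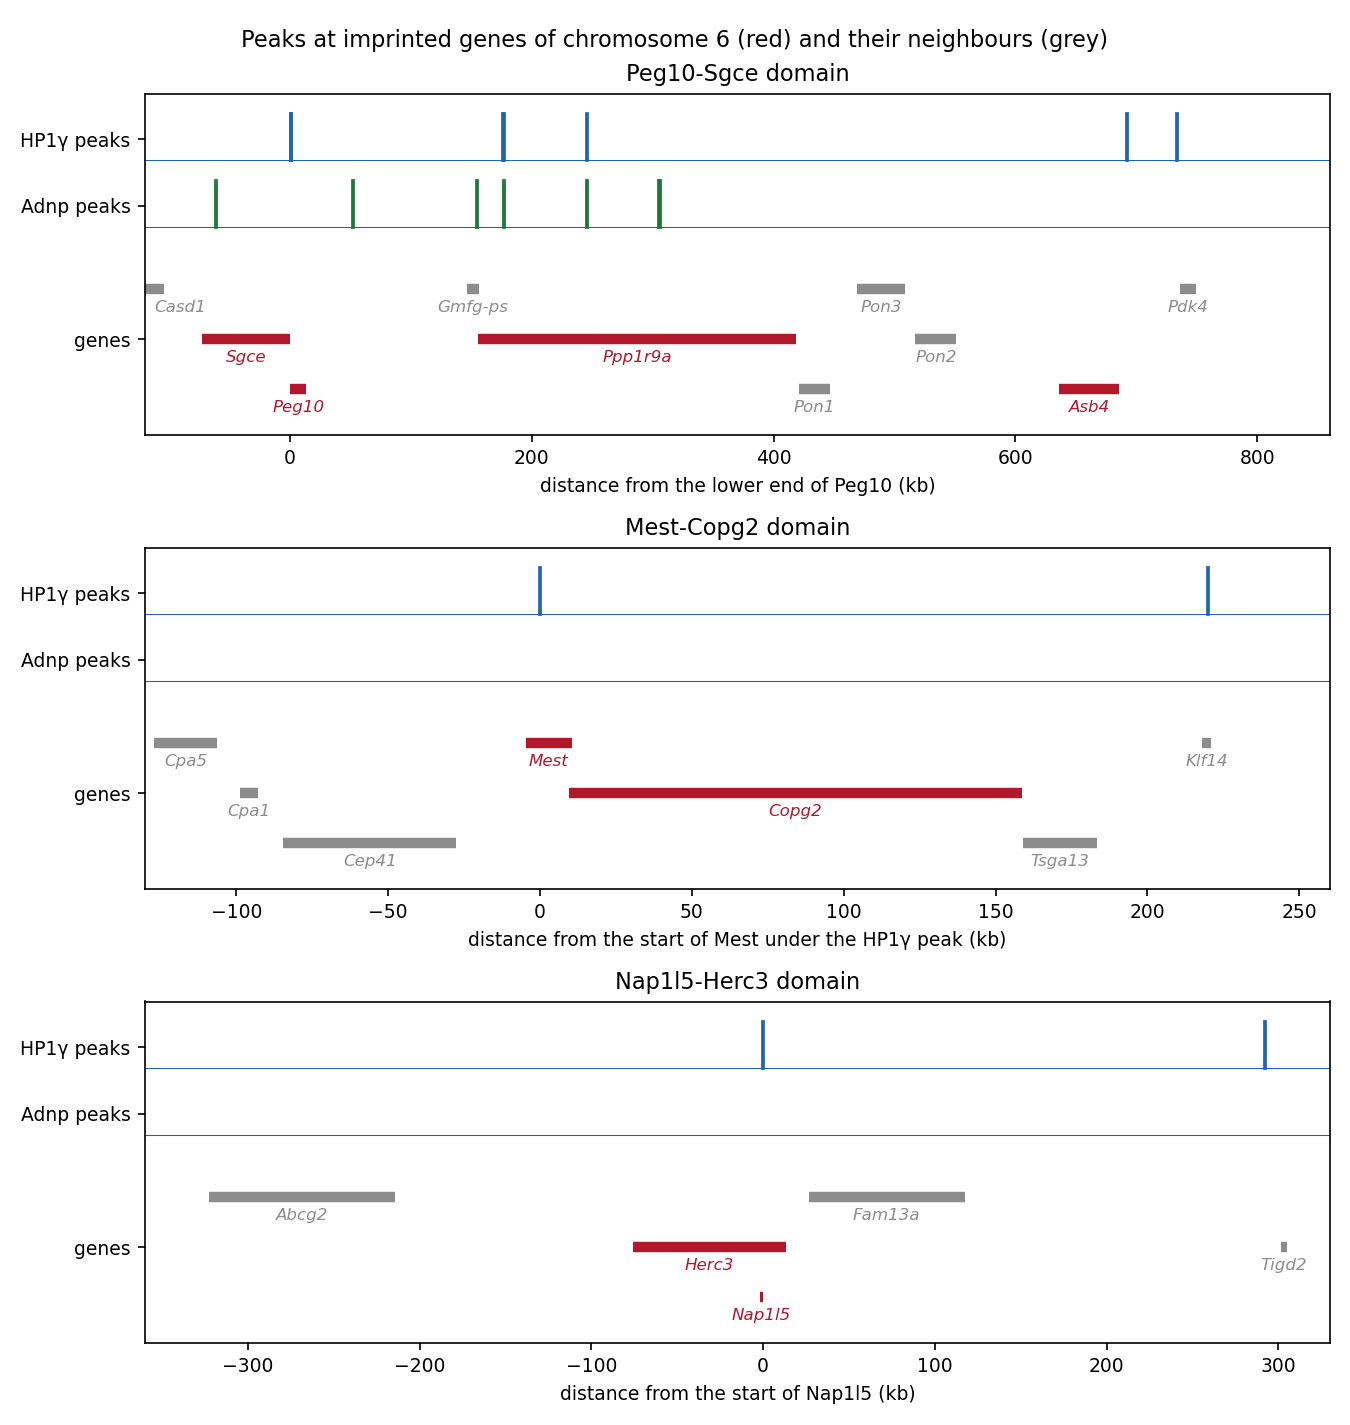
Each panel maps 1 domain by distance in kb from the named gene end or start. HP1γ peaks (blue) and Adnp peaks (green) are vertical ticks and genes are bars. The 8 imprinted or imprint-associated genes are in red and neighbouring genes in grey. HP1γ ticks stand at or near 0 in all 3 panels, where peaks closer than a few kb merge into 1 tick. The zero points were chosen with the peaks known, and that of Mest is the start under its peak. The ticks at 0 are therefore no separate result. No Adnp tick appears in the Mest-Copg2 and Nap1l5-Herc3 panels.

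An HP1γ peak lay inside or within 5 kb of 6 of the 8 genes (75%, 95% Wilson interval 40.9% to 92.9%), where 3.88% of all protein-coding genes had one. These 6 genes rest on 4 places, because Peg10 and Sgce share their peaks and Nap1l5 lies within Herc3, and 7 distinct peaks lay there in all. The rule that chose the genes used these peaks, so nothing is read from that difference. The Wilson intervals here and below take genes as independent draws. The 8 genes were chosen and partly share places, so nothing is read from their intervals either. Within 20 kb, all 8 genes had an HP1γ peak, against 6.83% of all protein-coding genes. Among the protein-coding genes of chromosome 6 the shares were 4.73% within 5 kb and 8.66% within 20 kb. The genes just outside the 5 kb window were Asb4 and Copg2, and Sgce was the one inside it without a peak in its own span. The median protein-coding gene lay 422 kb from its nearest HP1γ peak.

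Sgce and Ppp1r9a, 2 of 8 genes (25%, 7.15% to 59.1%), had an Adnp peak inside or within 5 kb, where 29.2% of all protein-coding genes had one. Within 20 kb the count was again 2 of 8, against 43.8% of all protein-coding genes. Among the protein-coding genes of chromosome 6 the Adnp shares were 24.6% within 5 kb and 37.1% within 20 kb. The nearest gene outside that window was Peg10, 38.7 kb from an Adnp peak, while the median protein-coding gene lay 30.6 kb from one. The 6 Adnp peaks within 5 kb of the members all belonged to the Peg10-Sgce domain. Over the 759 kb from Sgce to Asb4 there were 7 Adnp peaks, or 9.23 per Mb (95% exact Poisson interval 3.71 to 19.01), beside 5 HP1γ peaks, or 6.59 per Mb (exact Poisson interval 2.14 to 15.4). The 163 kb of Mest and Copg2 and the 88.9 kb of Herc3 and Nap1l5 held no Adnp peak, and the upper bounds of the same interval were 22.6 and 41.5 per Mb. These intervals cover counting error only. Chromosome 6 as a whole held 745 Adnp peaks and 195 HP1γ peaks. Its density was not computed, so neither these densities nor the empty spans are read as high or low.

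**Figure D2:**
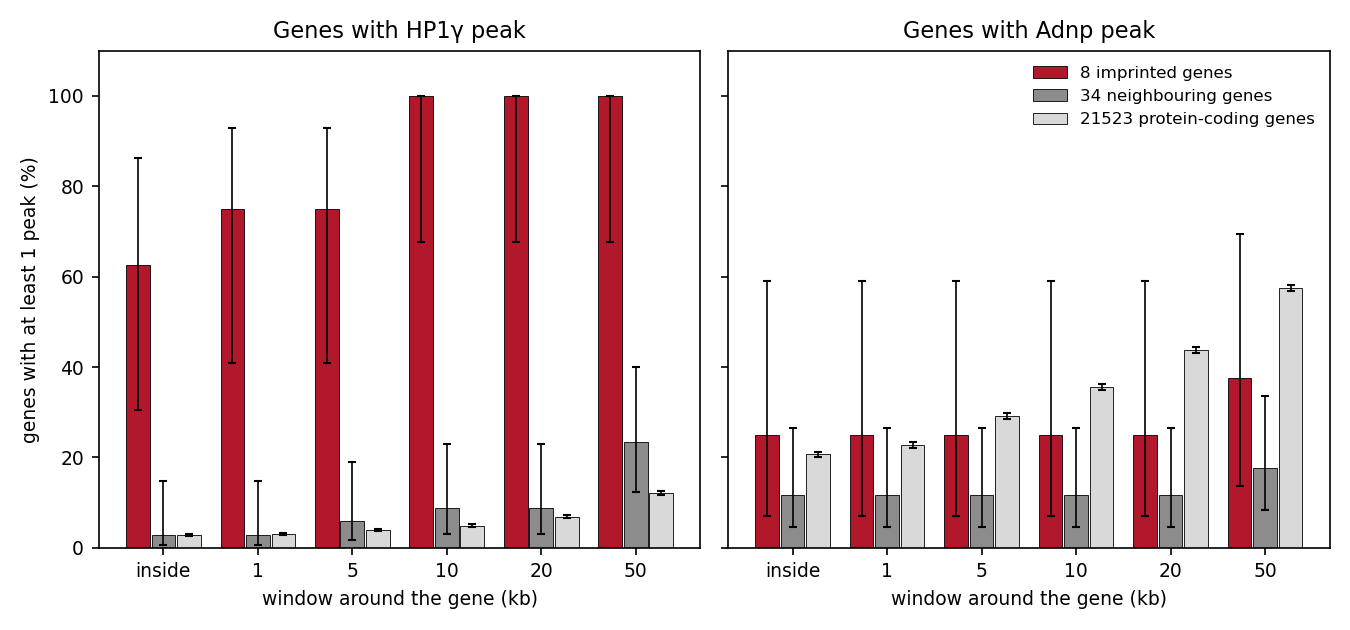
Bars give the percentage of genes with at least 1 HP1γ peak (left) or Adnp peak (right). A peak counts inside the gene or within the window on the x axis in kb. Shown are the 8 imprinted or imprint-associated genes, their 34 neighbours and all 21523 protein-coding genes. Error bars are 95% Wilson intervals, which take genes as independent draws. The 8 chosen genes are not, so nothing is read from their error bars. At 5 kb the HP1γ bars stand at 75%, 5.88% and 3.88%, and the Adnp bars at 25%, 11.8% and 29.2%.

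Neighbouring genes were the protein-coding genes inside each domain and the nearest 5 on each side, 34 in all. Of these, 2 (5.88%, Wilson interval 1.63% to 19.1%) had an HP1γ peak inside or within 5 kb, against 6 of the 8 genes. The 2 were Klf14 and Pdk4. Klf14 is itself known as maternally expressed in mouse, and the 8 include imprint-associated genes. The comparison is therefore of chosen genes with their neighbours, and not of imprinted with non-imprinted genes. The 34 neighbours include families of adjacent genes, such as vomeronasal receptors and carboxypeptidases, that are not independent of each other. An Adnp peak lay that near to 4 of the 34 neighbours (11.8%, 4.67% to 26.6%), against 2 of the 8. Within 20 kb these counts were 3 neighbours for HP1γ, with Tigd2 added, and again 4 for Adnp.

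Klf14 was the 1 neighbour with an HP1γ peak inside the gene. It encodes a Krüppel-like transcription factor, is known as a maternally expressed gene in mouse, and lies 59.2 kb beyond Copg2 (30956021 to 30958990). Its HP1γ peak of 995 bp at 30957397 to 30958391 lay inside the gene and ranked 60 by width, with 2.93% of the peaks at least as wide. No Adnp peak lay within 20 kb. Between Copg2 and Klf14, Tsga13 had no peak of either list within 20 kb, and neither had Cep41, the nearest gene on the other side of Mest.

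The other neighbours had narrower HP1γ peaks outside the gene, Adnp peaks or no listed peak. The HP1γ peak of Pdk4, a pyruvate dehydrogenase kinase gene beyond Asb4, was 346 bp wide and lay 2.04 kb outside the gene, on the side away from its annotated start. Tigd2, beyond Fam13a, had an HP1γ peak of 201 bp 9.51 kb away. Casd1 below Sgce and Abcg2 and Fam13a beside Herc3 had no peak within 20 kb. Gmfg-ps, which overlaps the lower end of Ppp1r9a and is listed as protein coding, held the Adnp peak with a score of 21.8. Slc25a13, a mitochondrial carrier gene, held 2 Adnp peaks with scores of 19.96 and 11.09, and Mkln1 had 3 with scores of 21.4 to 25.5. The paraoxonase genes Pon1, Pon2 and Pon3, between Ppp1r9a and Asb4, had no peak of either list within 20 kb.

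Promoter windows of 300 bases, from 250 before a start to 50 after it, were available for 6 of the 8 genes and 27 of the 34 neighbours. An HP1γ peak covered the full window of 2 of the 6 genes, Mest and Nap1l5, and touched none of the 27 neighbours, where 0.509% of 17274 protein-coding genes had a window on an HP1γ peak. Mest's covered windows are 2 that start 3 bases apart. No window of the 6 genes or the 27 neighbours lay on an Adnp peak. Only 320 of all 32619 windows did, so nothing is read from this absence.

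The covered windows were richer in CG dinucleotides than most. The Mest and Nap1l5 windows each held 17 CG, against 8 in the upstream Mest window, 4 at Herc3, 25 at Copg2 and a median of 7 over all 32619 windows. All windows together belong to 26794 genes, not only protein-coding ones. Over the 124 windows that touch an HP1γ peak anywhere, the median was 23. Ppp1r9a, whose windows lay on no peak, held 48 CG in 1 window and 10 in the other. The 30 neighbour windows, also on no HP1γ peak, had a median of 6.5. Several of them still reached 17 or more, among them Gmfg-ps with 51, Pon2 with 31, Cep41 with 19 and Slc25a13 with 17. A count of 17 was therefore not particular to the covered windows.

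The Mest and Nap1l5 windows each held 2 copies of TGCCGC on either strand, of which the second at Nap1l5 lies after the start and outside the printed stretch. Of all windows, 1.54% held at least 2 copies and 11.7% at least 1. Of the 124 windows on an HP1γ peak, 4.03% held at least 2 copies and 22.6% at least 1. Copg2 held 1 copy without a peak, and the upstream Mest start, Herc3, Asb4 and Ppp1r9a held none. Among the neighbours, Casd1 and Pon3 held 1 copy each. The hexamer contains a CG, and a match is a description and no evidence of binding.

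**Figure D3:**
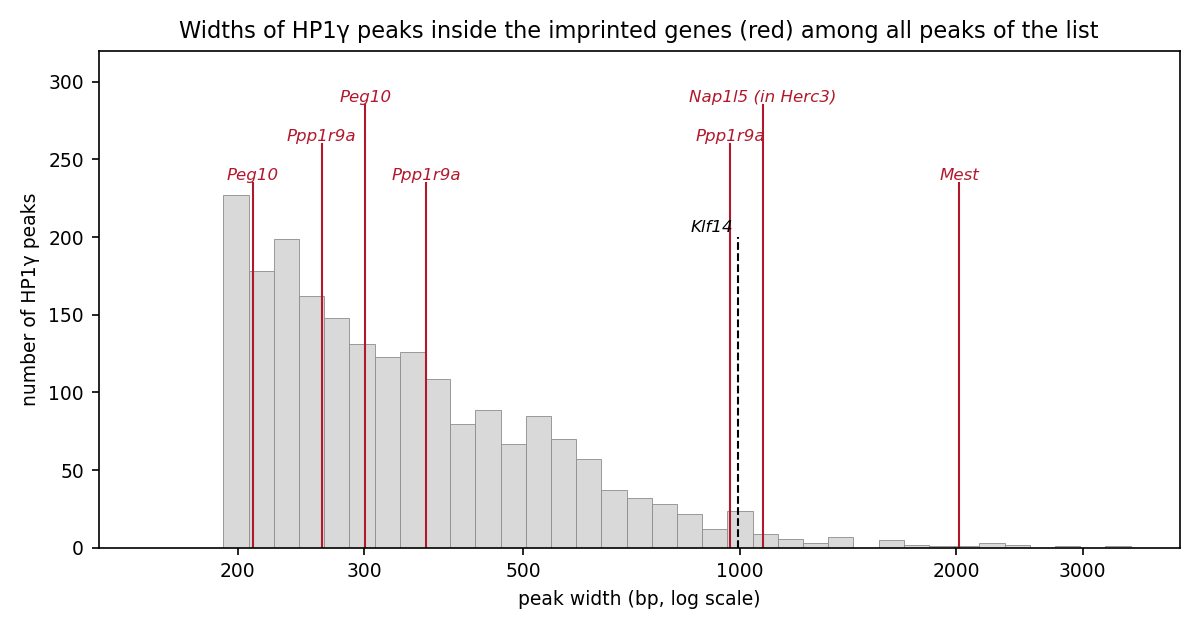
The histogram shows the widths in bp (log axis) of all 2047 HP1γ peaks. Vertical lines mark the 7 peaks inside the 8 genes (red) and the peak of Klf14 (black, dashed). Peaks at Mest, Nap1l5 and 1 of Ppp1r9a lie at 969 bp or more, and the Peg10 peaks lie near the middle or below, at 210 and 301 bp.

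Width was not part of the rule that chose the genes, although it comes from the same list. The median HP1γ peak was 306 bp wide, with quartiles at 233 and 452 bp and a minimum of 199 bp. Of the 7 peaks inside the 8 genes, those of Mest and Nap1l5 and 1 of Ppp1r9a were above 900 bp, a limit set after the values were seen, which 3.71% of the list reached. Chromosome 6 held 11 such peaks among its 195 HP1γ peaks, and besides these 3 and that of Klf14 they included peaks at Trim24 and Kdm3a, which are named here because of their widths. The remaining 4 peaks inside the 8 genes were 210 to 366 bp wide. How the peak caller's settings bear on width was not tested.

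On chromosome 6, 53 of 1120 protein-coding genes had an HP1γ peak within 5 kb, among them 6 of the 8. The 8 were chosen with these peaks known, and the HP1γ peaks lack the Adnp motif, so nothing is read from the next counts. Of the 53 genes, 25 had no Adnp peak within 20 kb, and 4 of these were Peg10, Mest, Nap1l5 and Herc3. By most HP1γ peaks and then by alphabet, the genes most like them outside the 8 were M1ap, a meiosis gene, and Mios, a gene of the GATOR2 complex, with 2 peaks each, followed by Chst13, Clec4a4 and Dok1 with 1 each. Their widest HP1γ peaks were 284 bp at M1ap and Dok1, 446 bp at Mios, 210 bp at Chst13 and 681 bp at Clec4a4. The alphabetical order left out other genes with 1 peak, among them Klf14 with its peak of 995 bp. The 5 named genes therefore do not stand for the widths at all such genes.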

How the data were processed

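Peaks came from 2 deposited lists without header lines. The start and end of each peak are in bp. The score of the Adnp list is the authors' value of a kind not stated, and the deposited score is 0 for every HP1γ peak. Per the submitters' processing notes, the tools were MACS2, STAR 2.5.0a, Bowtie 1.0.0, bcl2fastq 1.17 and edgeR, without roles, and the build was mm10. Settings of the peak caller: not given in the sources used here. Chromatin was sonicated to fragments averaging 300 bp, per the labels' protocols.

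Genes and promoter windows came from RefSeq tables of GRCm38.p6, for chromosomes 1 to 19 and X and genes starting at 3 Mb or later; 47 HP1γ and 17 Adnp peaks elsewhere met no gene. A gene had a peak if any base lay inside it or within 5 kb. The gene table has no strand, so starts were taken from the promoter table. The 8 genes and all gene lists were chosen with earlier results of these data known. The rule for named genes took the 8 genes, neighbours with a peak within 20 kb and the nearest on each side, listed imprinted and imprint maintenance genes with peaks within 5 kb (up to 6 of the former, by number of peaks and then alphabet), and the 5 most alike genes of chromosome 6. One neighbour under this rule is not reported by name. Wilson and Poisson intervals are at 95%. No test was run. The interval code was tested on made-up peaks. Python 3.11.15, NumPy 2.4.6, pandas 2.3.3, SciPy 1.17.1 and matplotlib 3.10.9 were used.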

Additional observations from a re-analysis of the deposited data

How the results depend on the processing

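Counts with the 5 kb window were compared with 14 alternatives where they apply. Of 63 values, 46 stayed within 1.5 times the reported count and 17 moved farther. With either gene end alone, 4 HP1γ peaks and 1 Adnp peak lay near the 8 genes, 1 of them had an Adnp peak and 2 neighbours did. With gene starts alone, where Peg10 and Sgce have no entry, 2 members (Mest and Nap1l5) had an HP1γ peak, from 2 peaks, and no neighbour (0) did; 1 Adnp peak lay near 1 member, and 2 neighbours had one. Adnp peaks at or above the median score left 2 peaks near 1 member. HP1γ peaks at or above the median width left 4, none at Peg10 or Sgce. With peaks inside the gene, or within 1 kb, 1 neighbour had an HP1γ peak, and within 50 kb 8 did. With neighbours defined as within 500 kb, 2 of 26 had an Adnp peak. No paired analysis was possible because each list is pooled over replicates; for the same reason no replicate could be left out. Depth is unknown, so a gene without a peak is one where none was listed.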

Other observations

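Imprinted loci on other chromosomes were counted in the same way. Their peaks in the HP1γ list were partly known before, so the counts are no independent support. Of 23 listed symbols of imprinted genes, 21 were found in the gene table. Of the 21 genes, 11 had an HP1γ peak within 5 kb, where 3.88% of all protein-coding genes had one. These counts are of genes and not of separate loci, since some, such as Airn and Igf2r, share a locus. Zac1, which was not found, is an older symbol of Plagl1, which was. The 11 genes had 11 distinct peaks of 229 to 1075 bp (median 555 bp). None of the 11 peaks overlapped an Adnp peak, where 318 of all 2047 HP1γ peaks (15.5%) did. The list holds peaks that lack the Adnp motif, so nothing is read from that. Airn and Igf2r, which overlap, had 2 each, the wider of 787 bp. The peak of Gnas was 1075 bp wide, that of Grb10 316 bp, that of Fkbp6 300 bp and that of H19 264 bp. Airn was the 1 of the 21 with an Adnp peak, with a score of 12.2, where 29.2% of all protein-coding genes had one. The 21 include long noncoding RNA genes, Airn and H19 among them, so the protein-coding shares are not of like genes. Nothing is read from either contrast. Peg3, Snrpn, Mcts2, Meg3 and Slc38a4 had no peak of either list within 5 kb.

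A list of 12 genes that set or maintain imprints was chosen with earlier results of these data known. Its counts are therefore a description, and nothing is read from their difference from all genes. Of the 12, 8 had an Adnp peak within 5 kb, where 29.2% of all protein-coding genes had one. An HP1γ peak lay that near to 1 of the 12, where 3.88% of all protein-coding genes had one. That gene was Zfp445, which encodes a KRAB zinc finger protein that maintains imprints, with 3 HP1γ peaks, the widest of 1723 bp, and 1 Adnp peak with a score of 16.5. The Adnp peak of Zfp57 scored 7.12 and that of Uhrf1, the partner of the maintenance DNA methyltransferase, 57.2. The top scores were 30.6 at Dnmt3a, 27.2 at Dppa3, 27.1 at Dnmt3b, 19.2 at Setdb1 and 18.3 at Atrx, which had 4 peaks. Trim28, Dnmt1, Dnmt3l and Hells had no peak of either list.

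Several of the 8 genes lie in stretches without an Adnp peak that are longer than the median stretch. Between neighbouring Adnp peaks the median stretch was 29.4 kb over 14989 stretches. Nap1l5 and Herc3 lie in one of 5.4 Mb with 52 protein-coding genes, and 0.32% of stretches were at least as long. Mest lies in one of 726 kb (4.51% at least as long), Asb4 in one of 1080 kb (3.2%) and Peg10 in one of 113 kb (21.1%). These shares count stretches and not genes, and a long stretch holds more genes than a short one. No share per gene was computed, so nothing is read from these lengths.

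The deposited HP1γ list is not in genome order, and what orders it is not stated. The wide peaks of Ppp1r9a, Nap1l5, Mest and Klf14 stand at positions 11, 31, 46 and 147 of 2047, and those of Peg10 at 1130 and 2038. Over all 2047 peaks, position and width were related with a Spearman's rho of -0.46, given as a description without a test.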
